A study of Mus musculus with 27 samples.

Results

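Proteasome subunit genes were followed in the liver RNA-Seq of HGFAC-KO mice and their littermate controls. All gene symbols that begin with *Psma*, *Psmb*, *Psmc*, *Psmd*, *Psme*, *Psmf* or *Psmg* and a number were taken, pseudogenes apart, and 49 symbols matched. Of these, 48 had at least 10 counts in 6 or more libraries and were kept, out of 13981 gene symbols of the table that reached the same minimum and 23191 named symbols in all. The symbol left out was *Psmb11*, the catalytic subunit of the thymus, with 0 to 2 counts per library. The 48 genes held 8 of the 20S alpha ring, 7 of the constitutive 20S beta ring, the 3 immunoproteasome genes, 6 ATPases and 11 other subunits of the 19S particle, 3 19S assembly chaperones, 4 20S assembly chaperones and 5 activators or inhibitors of the 20S core. *Psmc3ip*, which shares the symbol and is no proteasome subunit, was the remaining match. The first 2 classes and both 19S subunit classes, 32 genes together, are called constitutive. The name follows the class, and *Psma8*, an alpha subunit of testis with 15 to 69 counts per library here, is among them.

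The proteasome degrades proteins marked with ubiquitin. Its barrel, the 20S core, stacks rings of alpha subunits around rings of beta subunits, and *Psmb5*, *Psmb6* and *Psmb7* encode the beta subunits with the active sites. The 19S particle caps the barrel: its ATPases (*Psmc* genes) unfold the substrate and feed it inwards, and its other subunits (*Psmd* genes) bind ubiquitin chains and take them off. Interferons induce *Psmb8*, *Psmb9* and *Psmb10*, whose products take the places of those of *Psmb5*, *Psmb6* and *Psmb7* in newly built cores. The resulting immunoproteasome is known for cutting peptides that are loaded onto MHC class I molecules, and it is most abundant in immune cells. Liver tissue holds immune cells beside hepatocytes, and in whole liver more cells of a type cannot be told apart from more RNA per cell.

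The 27 mice were males in 4 groups, with an age of 8 weeks in the labels. Whether this is the age at the start of the diet or at tissue collection is not given in the sources used here. Littermate controls numbered 7 on chow and 7 on a diet rich in fat and sucrose (HF/HS), and HGFAC-KO mice numbered 6 on chow and 7 on HF/HS, with 4 weeks of diet. The knockout is of the whole body and removes part of the opening exon of *Hgfac* and all of the following one, so the protein, a serine protease that the liver secretes to activate hepatocyte growth factor, is lost in every tissue and from birth. Levels are CPM, counts scaled to the library total, after TMM normalization.

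The label of each mouse was checked on *Hgfac*. On chow, controls lay between 183 and 219 CPM (median 201) and HGFAC-KO mice between 65.4 and 84.5 CPM (median 76.7). On HF/HS, these bounds were 247 and 296 CPM for controls and 81.8 and 100.7 CPM for HGFAC-KO mice. Thus each HGFAC-KO mouse lay below each control on its diet. The counts cover the whole gene, of which a part was deleted. Liver identity held too, since none of the 11 hepatocyte markers in the table was at 0 in all mice and their summed level lay between 87850 and 125780 CPM. Total counts per library spanned 36056177 to 57298657.

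A pair of libraries stood apart. In KO chow replicate 1 every count was even, with 0% of genes above 0 at an odd count, whereas 51.3% to 52.8% were odd in 25 other libraries. In KO HF/HS replicate 6 the odd share was 44.4%. KO chow replicate 1 had no gene at 1 count, and KO HF/HS replicate 6 had 383 such genes against 994 to 1175 elsewhere. The counts of KO chow replicate 1 thus have the form of counts multiplied by 2, which gives them the counting error of a library of smaller depth. The counts over the constitutive genes and the calls that changed are also given without these libraries.

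To show what the regulatory sequence of the exchanged subunits looks like, the promoter windows of both pairs in the table of RefSeq promoters (GRCm38.p6, from 250 bases before to 50 bases after the start site) are printed. Capitals mark a match to 1 of 3 motifs searched on both strands: TGACNNNGC, the core of the element bound by NFE2L1 and NFE2L2, GAAANNGAA, a part of interferon-stimulated response elements, and TTCNNNGAA, a palindrome found in cytokine response elements. The motifs were counted whether or not they overlapped. The windows are chr14:54617946-54618245 on the minus strand for *Psmb5*, chr11:70525107-70525406 on the plus strand for *Psmb6*, chr17:34197945-34198244 on the plus strand for *Psmb8* and chr17:34187281-34187580 on the minus strand for *Psmb9*.
Psmb5: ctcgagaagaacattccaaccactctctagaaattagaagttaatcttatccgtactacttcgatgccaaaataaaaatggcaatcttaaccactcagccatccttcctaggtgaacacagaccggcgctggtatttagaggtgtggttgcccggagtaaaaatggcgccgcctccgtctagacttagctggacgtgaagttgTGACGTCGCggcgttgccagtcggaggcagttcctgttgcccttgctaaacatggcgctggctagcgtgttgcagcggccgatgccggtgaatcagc
Psmb6: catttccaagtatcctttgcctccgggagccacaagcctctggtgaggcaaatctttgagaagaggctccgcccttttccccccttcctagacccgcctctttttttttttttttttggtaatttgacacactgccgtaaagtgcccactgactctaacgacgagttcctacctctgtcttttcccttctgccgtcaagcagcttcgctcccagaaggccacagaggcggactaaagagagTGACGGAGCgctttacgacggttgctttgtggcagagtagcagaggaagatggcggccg
Psmb8: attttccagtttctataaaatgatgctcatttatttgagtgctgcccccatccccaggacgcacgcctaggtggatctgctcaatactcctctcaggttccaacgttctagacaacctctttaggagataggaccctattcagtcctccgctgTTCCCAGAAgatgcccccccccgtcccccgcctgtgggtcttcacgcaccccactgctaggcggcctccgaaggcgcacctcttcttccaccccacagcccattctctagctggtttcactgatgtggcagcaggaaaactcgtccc
Psmb9: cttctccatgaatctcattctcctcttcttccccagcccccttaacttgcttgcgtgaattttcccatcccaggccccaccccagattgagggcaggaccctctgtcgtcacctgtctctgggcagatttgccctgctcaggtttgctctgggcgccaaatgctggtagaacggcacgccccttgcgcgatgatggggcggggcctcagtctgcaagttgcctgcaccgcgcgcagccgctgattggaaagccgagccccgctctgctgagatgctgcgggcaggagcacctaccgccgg

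The windows of *Psmb5* and *Psmb6* each held 1 match to TGACNNNGC, TGACGTCGC starting at position -47 and TGACGGAGC starting at position -9 from the start site. That of *Psmb8* held TTCCCAGAA at -97, and that of *Psmb9* held none of the 3 motifs. Of the 25 constitutive genes with a window, 4 (16%) held TGACNNNGC, against 14% of the 26742 genes with a window in the table, so the share was near that of all genes. GAAANNGAA was in 7 of 40 members (17.5%, against 9.74% of all genes with a window), among them *Psme1*, and in 0 of the 3 immunoproteasome genes. TTCNNNGAA was in 3 of 40 members (7.5%, against 9.6%). In the GENCODE annotation of the same build, the windows of *Psmb8* (chromosome 17, 34197721 to 34201454) and *Psmb9* (chromosome 17, 34181987 to 34187764) lie inside the annotated gene, since it starts further upstream. Both genes lie in the MHC region. Exons of *Psmb9* share 212 bases with *Tap1*, a peptide transporter gene on the opposite strand, exons of *Psmb8* share 186 bases with Gm20496 on the opposite strand, and those of *Psmb5* share 109 bases with Mir686. The strand setting of the counting is not given in the sources used here, so such reads cannot be assigned with certainty.

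Per length, the induced genes were expressed below all constitutive genes but *Psma8*. On the scale of CPM per kilobase of annotated exon, averaged over the 4 groups, the constitutive genes had a median level of 68.0 and, *Psma8* apart, spanned 24.3 (*Psma3*, named after its value was seen) to 158.7, with 5 genes at the top: *Psmb6* (158.7), *Psmb4* (119.7), *Psmb7* (97.0), *Psma7* (89.9) and *Psma6* (88.1). The immunoproteasome genes stood at 18.2 for *Psmb10*, 13.8 for *Psmb8* and 10.3 for *Psmb9*. The median of the 20S assembly chaperones was 12.9 and that of the 19S assembly chaperones 10.3, on the same scale. The lowest levels were those of *Psmd10*, a 19S chaperone also called gankyrin (6.15), *Psmc3ip* (1.35) and *Psma8*, the alpha subunit of testis (0.428). *Psma8* rested on 15 to 69 counts per library, and reads of its near copy *Psma7* could be part of them.

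Spread between mice differed by class as well. The SD of log2 CPM within groups had a median of 0.08 over the constitutive genes, and it was 0.16 for *Psmb10*, 0.18 for *Psmb8* and 0.30 for *Psmb9*. A change of the same size is therefore harder to call in the immunoproteasome genes than in most constitutive ones.

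**Figure D1:**
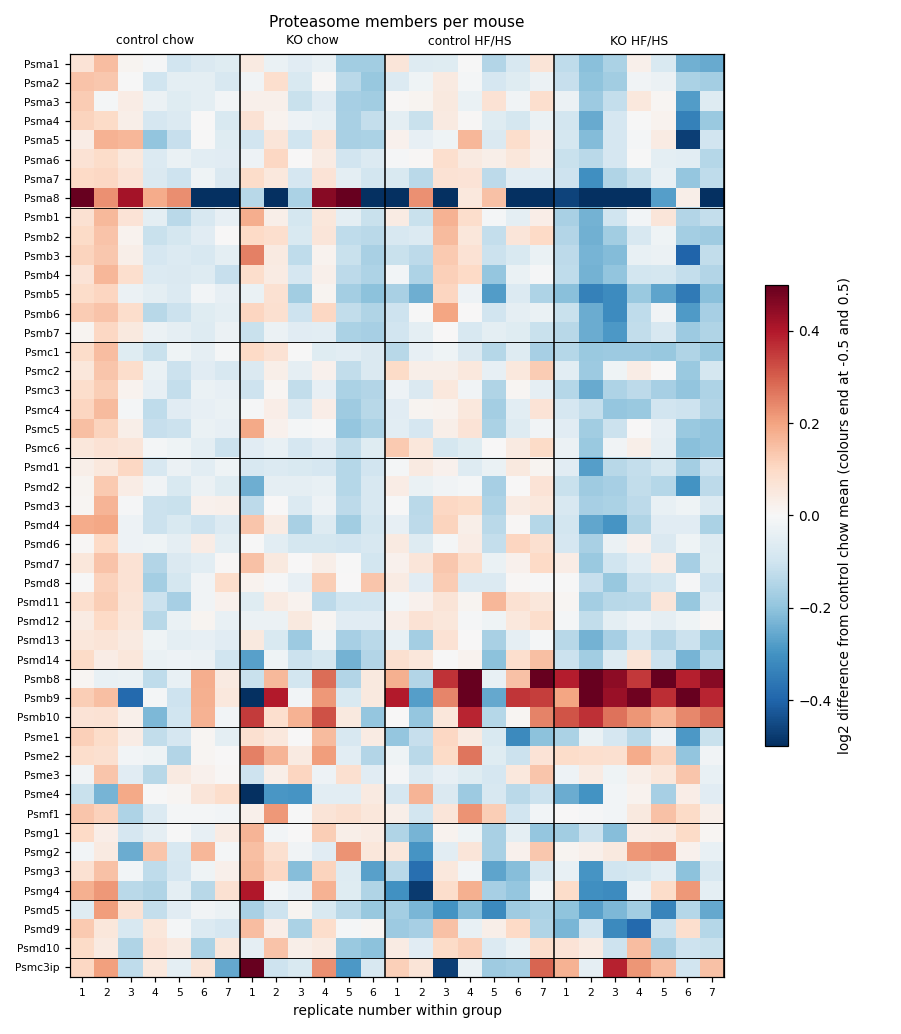
Each row is 1 of the 48 genes, grouped by class, and each column 1 mouse. Colour gives the difference in log2(CPM + 0.05) from the mean of the control mice on chow, red for higher and blue for lower, with colours ending at -0.5 and 0.5. The KO HF/HS columns are mostly blue in the constitutive rows and red in *Psmb8*, *Psmb9* and *Psmb10*, and KO chow replicate 1 has several extreme cells.

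The comparison of HGFAC-KO mice with controls on HF/HS asked whether loss of HGFAC changed these genes under the diet. No proteasome gene passed the threshold (adjusted p under 0.05, from the quasi-likelihood test of edgeR after Benjamini-Hochberg adjustment), where 0.0148% of the 13544 genes tested did. The direction was the same throughout the constitutive genes: 32 of 32 had a lower mean in HGFAC-KO mice (50.5% of all genes tested did), with log2 fold changes from -0.18 to -0.07 and a median of -0.12, against a median of -0.0015 over all genes tested. At an unadjusted p under 0.05, 20 of the 32 were lower and 0 higher, where 4.7% of all genes tested were lower and 4.94% higher. The genes of 1 complex vary together between mice, so they do not count as 32 separate observations. The smallest adjusted p among them was 0.411, and DESeq2 called 1 gene (*Psmc3*), and limma voom called 0. The 32 genes stayed lower under all 10 other settings and in all 14 fits that left out 1 mouse, and without KO HF/HS replicate 6 the median was -0.11, with 13 genes at that unadjusted p. The number at that p was less stable: it was 11 without KO HF/HS replicate 2, 12 without control HF/HS replicate 1 or KO HF/HS replicate 7, 13 with upper-quartile normalization, 14 without any one of control HF/HS replicates 6 and 7 and KO HF/HS replicate 3, and 12 with the replicate number as a block, and the highest number was 24.

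Among the constitutive genes with the smallest p, *Psmc3*, a 19S ATPase gene, spanned 134 to 154 CPM (median 146) among controls and 125 to 135 CPM (median 133) in HGFAC-KO mice, and its log2 fold change was -0.13 (standard error, SE, 0.04, unadjusted p = 0.00476, adjusted p = 0.411). Of the 7 HGFAC-KO mice, 5 were below every control. *Psmd1*, whose product is a scaffold of the 19S base, spanned 163 to 177 CPM (median 172) among controls and 141 to 164 CPM (median 157) in HGFAC-KO mice. With a log2 fold change of -0.14 (SE 0.04, unadjusted p = 0.00563), it had 6 of 7 HGFAC-KO mice below every control. *Psmd2*, the other large scaffold gene, overlapped more: it spanned 224 to 264 CPM among controls and 205 to 233 CPM in HGFAC-KO mice. *Psmb2*, a beta subunit without an active site, had a log2 fold change of -0.16 (means of 69.7 and 62.3 CPM among controls and HGFAC-KO mice) and *Psma6*, of the alpha ring, one of -0.12 (means of 104.5 and 96.4 CPM).

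The 3 active-site genes of the constitutive core were lower by similar amounts. *Psmb5* spanned 57.3 to 74.9 CPM (median 62.5) among controls and 54.5 to 61.1 CPM (median 58.0) among the HGFAC-KO mice of that diet, a log2 fold change of -0.15. *Psmb6* spanned 122 to 150 CPM (median 128) and 105 to 129 CPM (median 117), a log2 fold change of -0.17. *Psmb7* spanned 110.3 to 119 CPM (median 114) and 97.5 to 113 CPM (median 107), a log2 fold change of -0.11. In *Psmb6* and *Psmb7*, 6 of 7 HGFAC-KO mice lay below every control, whereas *Psmb5* overlapped more. In none of the 48 genes were the genotypes wholly apart, and 0.0812% of all genes tested were.

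The induced counterparts had higher means in the same HGFAC-KO mice, and none passed the threshold. *Psmb8* spanned 17.6 to 30.1 CPM (median 22.1) among controls and 25.0 to 30.7 CPM (median 26.6) in HGFAC-KO mice, a log2 fold change of 0.21 (SE 0.10, unadjusted p = 0.0633). *Psmb9* spanned 9.91 to 19.8 CPM (median 15.3) and 13.8 to 23.9 CPM (median 16.2), a log2 fold change of 0.26 (unadjusted p = 0.101). *Psmb10* spanned 19.2 to 28.6 CPM (median 22.1) and 24.6 to 28.3 CPM (median 26.6), a log2 fold change of 0.21 (unadjusted p = 0.0186, adjusted p = 0.448). The lowest controls lay well below all HGFAC-KO mice, and the highest control lay above the HGFAC-KO range in *Psmb10* and inside it in *Psmb8* and *Psmb9*. The 4 genes for 20S assembly chaperones also had higher means in HGFAC-KO mice (log2 fold changes from 0.02 to 0.11), and the 3 for 19S assembly had lower ones.

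**Figure D2:**
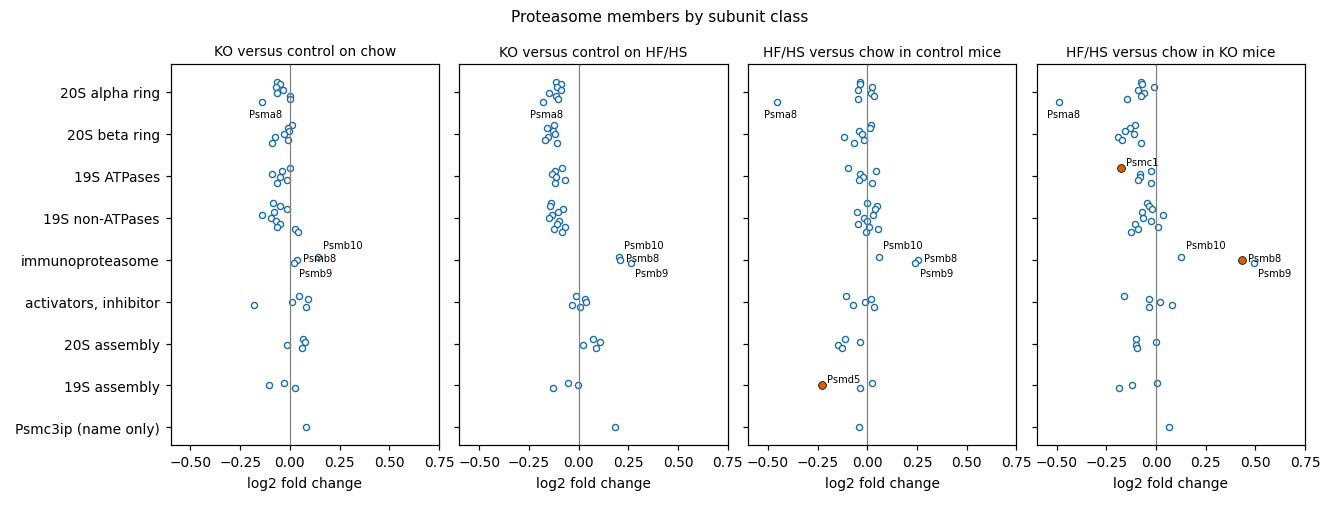
Each point is 1 gene, placed by its log2 fold change (horizontal axis) in 4 comparisons (panels) and by its class (rows), with filled orange points for adjusted p under 0.05. In the panel of HGFAC-KO against control on HF/HS, the 4 constitutive classes lie below 0 and the immunoproteasome genes between 0.21 and 0.26. The panels share groups of mice with each other.

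The same comparison was made on chow. No proteasome gene passed the threshold, where 0.00737% of the 13571 genes tested did. Of the constitutive genes 27 of 32 had a lower mean in HGFAC-KO mice (48.8% of all genes tested did), with a median log2 fold change of -0.05 against 0.0031 over all genes, and 1 gene (*Psmd14*) had an unadjusted p under 0.05, where 2.59% of all genes were lower at that p. DESeq2 and limma voom called 0 proteasome genes there. *Psmd14*, the deubiquitinase of the 19S lid, spanned 63.4 to 72.6 CPM (median 66.8) among controls and 56.3 to 66.9 CPM (median 62.2) in HGFAC-KO mice, and 4 of 6 HGFAC-KO mice lay below every control. Its log2 fold change was -0.14 (SE 0.05, unadjusted p = 0.0132, adjusted p = 0.801). The next smallest p belonged to *Psmb7* (-0.09), *Psmd1* (-0.09), *Psme4* (-0.18) and *Psmd2* (-0.09), where the log2 fold change is given in brackets. *Psme4*, which encodes a 20S activator, had its lowest level in the library with even counts, 110.2 CPM in KO chow replicate 1. With the counts of that library divided by 2 the median of the constitutive genes stayed at -0.05, and without it the median was -0.06 with 31 of 32 lower and 5 at an unadjusted p under 0.05. The number at that p was 4 in DESeq2 and 7 with total counts without TMM. The 31 lower was the highest count of the fits without 1 mouse. Without control chow replicate 1 or 2 it was 21 of 32 (median -0.02 in both), and without KO chow replicate 5 or 6 it was 22 (medians -0.03).

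The induced genes differed little between genotypes on chow. *Psmb8* spanned 17.9 to 22.2 CPM (median 19.1) among controls and 17.6 to 23.7 CPM (median 19.3) in HGFAC-KO mice. *Psmb9* spanned 9.15 to 13.6 CPM (median 12.4) and 7.86 to 15.8 CPM (median 12.2). *Psmb10* spanned 18.8 to 24.8 CPM (median 22.4) and 19.2 to 28.0 CPM (median 24.0). The groups overlapped in all 48 proteasome genes (0.125% of all genes tested had no overlap), with the induced genes at log2 fold changes of 0.03, 0.02 and 0.14. That of *Psmb8* turned to -0.02 without KO chow replicate 4. That of *Psmb9* turned to -0.04, -0.07 and -0.02 when control chow replicate 3, KO chow replicate 2 or KO chow replicate 4 was left out.

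**Figure D3:**
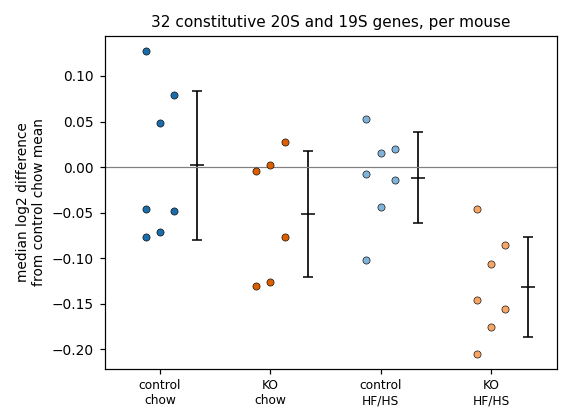
Each point is 1 mouse, and the vertical axis gives the median over the 32 constitutive genes of its log2 difference from the control chow mean. Black bars show the mean and SD of a group. The 7 HGFAC-KO mice on HF/HS lie between -0.20 and -0.05, and the other groups span 0.

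The 32 genes were also read mouse by mouse. In the control group on chow, replicate 2 was highest in 25 of the 32 genes and replicate 4 lowest in 15, and the per-mouse medians lay from 0.05 to 0.13 in 3 mice and from -0.08 to -0.05 in 4. On HF/HS, those of controls lay between -0.10 and 0.05 (median -0.0074) and those of HGFAC-KO mice between -0.20 and -0.05 (median -0.15). On chow, the bounds were -0.08 and 0.13 for controls and -0.13 and 0.03 for HGFAC-KO mice. HGFAC-KO mice on HF/HS were thus the one group in which every mouse was below the control chow mean, and 2 of its 7 mice (replicates 4 and 5) lay above the lowest control on HF/HS. KO HF/HS replicate 2 was lowest of its group in 12 of the 32 genes and highest in all 3 immunoproteasome genes.

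Both genotypes were then used to describe the diet, with HF/HS set against chow in either one. In controls 1 of 48 proteasome genes passed the threshold, where 10.5% of the 13525 genes tested did. That gene was *Psmd5*, whose product helps to assemble the base of the 19S particle. It spanned 46.0 to 57.6 CPM (median 49.0) on chow and 40.0 to 44.7 CPM (median 43.0) on HF/HS, and it fell by 0.23 on the log2 scale (SE 0.05, adjusted p = 0.00913 by edgeR). Every control mouse on HF/HS lay below every control on chow, with p = 0.000583 in the two-sided exact permutation test, the smallest that 7 against 7 mice allow. In all 10 other settings and all 14 fits without 1 mouse it stayed past the threshold, with adjusted p from 8.46e-04 to 0.0461. In HGFAC-KO mice *Psmd5* spanned 43.8 to 50.4 CPM on chow and 39.7 to 45.2 CPM on HF/HS, a log2 fold change of -0.12 (unadjusted p = 0.0178 in edgeR, adjusted p = 0.130), and the groups overlapped. Groups that do not overlap were found, in controls, in 3.53% of all genes tested and in 1 of the 48 members.

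No constitutive gene passed with HF/HS in controls, and 20 of 32 had a lower (48.9% of all genes tested did) and 12 a higher mean, with a median log2 fold change of -0.02 (0.0036 over all genes tested). The direction of the median turned when control chow replicate 2 (13 lower, median 0.0064) or control HF/HS replicate 5 (15 lower, median 0.0042) was left out. None of them had an unadjusted p under 0.05 in edgeR, and none passed in DESeq2 or limma voom. The largest log2 fold change in size was that of the low *Psma8* (-0.46, not past the threshold). *Psmb8* (log2 fold change 0.25, SE 0.10, unadjusted p = 0.0242, adjusted p = 0.128) and *Psmb9* (0.24, adjusted p = 0.288) had higher means on HF/HS and did not pass. In *Psmb8*, 3 of 7 controls on HF/HS were above every control on chow and 1 was below all of them. *Psmg1* (-0.11) and *Psmg3* (-0.15), chaperones of 20S assembly, and *Psmc1* (-0.10) had the next smallest p.

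In HGFAC-KO mice 2 of 48 proteasome genes passed, where 5.89% of the 13613 genes tested did. *Psmb8* rose: it spanned 17.6 to 23.7 CPM (median 19.3) on chow and 25.0 to 30.7 CPM (median 26.6) on HF/HS, a log2 fold change of 0.43 (SE 0.08, adjusted p = 0.00348 by edgeR). Every HGFAC-KO mouse on HF/HS lay above every HGFAC-KO mouse on chow, with p = 0.000583 in the two-sided exact permutation test. The call held in all 12 other settings and all 13 fits without 1 mouse, with adjusted p from 1.27e-05 to 0.0144, among them the fit without both libraries with excess even counts. *Psmc1*, a 19S ATPase gene, spanned 116 to 131 CPM (median 120.1) on chow and 107 to 111 CPM (median 107.7) on HF/HS, and it fell by 0.17 on the log2 scale (SE 0.04, adjusted p = 0.0323). Its groups did not overlap either, which held for 3.01% of all genes tested. Its call was lost without any one of KO chow replicates 2 and 3 and KO HF/HS replicates 3, 4, 6 and 7, with no filter on low counts, with the replicate number as a block and without both libraries with excess even counts, and adjusted p lay from 2.45e-04 to 0.112 over all settings.

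*Psmb9* and *Psmb5* came next, on either side of 0. *Psmb9* spanned 7.86 to 15.8 CPM on chow and 13.8 to 23.9 CPM on HF/HS in HGFAC-KO mice, a log2 fold change of 0.49 (SE 0.15, adjusted p = 0.0625), and 4 of 7 mice on HF/HS lay above all on chow. *Psmb5* spanned 60.4 to 73.3 CPM (median 64.9) on chow and 54.5 to 61.1 CPM (median 58.0) on HF/HS, a log2 fold change of -0.19 (SE 0.06, adjusted p = 0.0573). Neither passed in the edgeR test of these mice, and both did in DESeq2 and in the edgeR fit of all 27 mice. *Psmb5* also passed with total counts without TMM, and *Psmb9* with the replicate number as a block. *Psmb10* had a log2 fold change of 0.13. Of the constitutive genes 30 of 32 had a lower mean on HF/HS (49.2% of all genes tested did), with a median log2 fold change of -0.08, and 7 were lower at an unadjusted p under 0.05, where 10.9% of all genes tested were. Without both libraries with excess even counts 28 of 32 were lower, with a median of -0.06 and 3 genes at that p. With 1 mouse left out, 4 (without KO chow replicate 4) to 10 (without KO HF/HS replicate 5) genes were.

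Interferon is known to induce *Psme1* and *Psme2* too, whose products form a cap that opens the 20S core, and neither rose here. In HGFAC-KO mice *Psme1* spanned 64.2 to 75.6 CPM (median 70.05) on chow and 55.6 to 66.7 CPM (median 62.7) on HF/HS, a log2 fold change of -0.16 (SE 0.05, unadjusted p = 0.00818, adjusted p = 0.0861). In controls its log2 fold change was -0.11. *Psme2* spanned 35.4 to 46.6 CPM (median 42.2) on chow and 34.1 to 44.5 CPM (median 41.4) on HF/HS in HGFAC-KO mice, with log2 fold changes of -0.03 there and 0.02 in controls. DESeq2 called *Psme1* lower in HGFAC-KO mice, and edgeR did not.

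An interaction term, fitted to all 27 mice, tested whether the diet effect differed by genotype. No proteasome gene passed, and neither did any of the 13932 genes tested (0%), of which 506 (3.63%) had an unadjusted p under 0.05 in edgeR, 1 of them a proteasome gene. Over the constitutive genes that number was 1 as well, and it lay between 0 and 5 with 1 mouse left out, with 5 without control chow replicate 2. DESeq2 and limma voom called 0 proteasome genes. Of the 32 constitutive genes, 31 had a log2 difference below 0 (48.7% of all genes tested did), with a median of -0.06, and without both libraries with excess even counts 26 did, with a median of -0.05. The gene with the smallest p was *Psmd7* (log2 difference -0.15, adjusted p = 0.984 by edgeR), followed by *Psma6* (-0.11), *Psmb2* (-0.15), *Psmd8* (-0.12) and *Psmb6* (-0.16). The difference was 0.18 (SE 0.13) for *Psmb8* and 0.25 (SE 0.21) for *Psmb9*. The rise of *Psmb8* in HGFAC-KO mice was therefore not shown to differ from its change in controls.

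**Figure D4:**
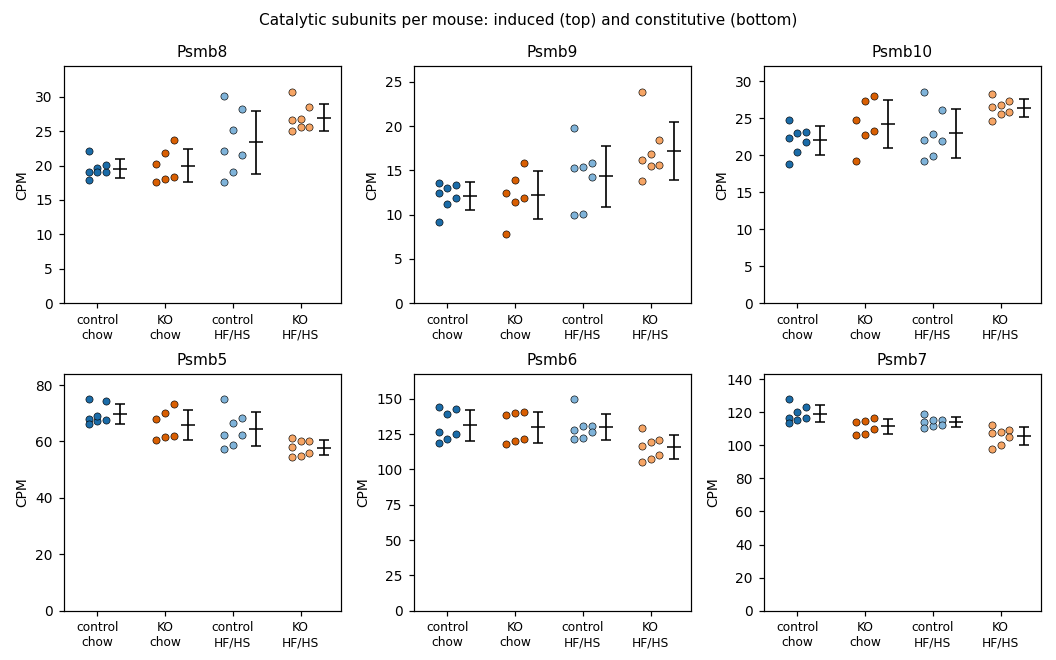
Each point is 1 mouse, with CPM on the vertical axis from 0 and the 4 groups on the horizontal axis, and black bars show mean and SD. In the top row (*Psmb8*, *Psmb9*, *Psmb10*) the HGFAC-KO mice on HF/HS have the highest means, and in the bottom row (*Psmb5*, *Psmb6*, *Psmb7*) the lowest.

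The ratio of an induced subunit to the one it replaces does not depend on how libraries are scaled. It was therefore compared in each mouse as the log2 ratio of counts (prior count 2), by two-sided exact permutation tests adjusted by Benjamini-Hochberg over 12 comparisons. These used the same reads as the values above and are no separate evidence. *Psmb8* and *Psmb5*, which encode the induced and the constitutive chymotrypsin-like subunit, gave 25.4 to 32.2 *Psmb8* counts per 100 *Psmb5* counts (median 28.1) in controls on chow and 26.6 to 33.8 (median 29.9) in HGFAC-KO mice on chow. On HF/HS there were 30.1 to 45.1 (median 33.6) in controls and 40.9 to 55.9 (median 47.1) in HGFAC-KO mice. The order of the groups was thus chow, HF/HS controls, HF/HS HGFAC-KO, and the chow groups overlapped.

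Between genotypes on HF/HS, the log2 ratio of *Psmb8* to *Psmb5* was higher by 0.38 in HGFAC-KO mice (exact p = 0.00641, adjusted p = 0.0192), and 4 of 7 lay above every control. On chow the difference was 0.11 (exact p = 0.149, adjusted p = 0.198). HF/HS raised the ratio by 0.35 in controls (exact p = 0.00117, adjusted p = 0.00699) and by 0.62 in HGFAC-KO mice, where the groups did not overlap (exact p = 0.000583, adjusted p = 0.00699). The differences under HF/HS and with HF/HS kept an adjusted p of at most 0.0350 in every fit that left out 1 mouse. Whether the genotype difference in this ratio was larger on HF/HS than on chow was not tested.

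In the other pairs HGFAC-KO mice on HF/HS also had the highest median, with less margin. The order of the group medians was the same for *Psmb9* to *Psmb6*. It was not for *Psmb10* to *Psmb7*, where HGFAC-KO mice on chow (21.5) lay above controls on HF/HS (19.4). *Psmb9* per 100 counts of *Psmb6*, which encodes the caspase-like subunit, had medians of 9.26 in controls and 9.89 in HGFAC-KO mice on chow and of 11.99 and 14.07 on HF/HS. The log2 ratio was higher in HGFAC-KO mice by 0.45 on HF/HS (exact p = 0.0332, adjusted p = 0.0498) and by 0.01 on chow (exact p = 0.946). HF/HS raised it by 0.67 in HGFAC-KO mice (exact p = 0.00175, adjusted p = 0.00699), and the difference in controls was 0.23 (exact p = 0.183). *Psmb9* in KO chow replicate 1, the library with even counts, was low at 5.61 per 100, and without that mouse the rise in HGFAC-KO mice was the smallest of the fits without 1 mouse, 0.52. The genotype difference on HF/HS passed the threshold narrowly. Leaving out any one of control HF/HS replicates 2, 3, 5, 6 and 7 or of KO HF/HS replicates 2, 3, 4, 6 and 7 lost the call, with differences from 0.35 to 0.48 and adjusted p up to 0.103.

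*Psmb10* per 100 *Psmb7* counts, the trypsin-like site, had medians of 18.2 in controls and 21.5 in HGFAC-KO mice on chow and of 19.4 and 25.0 on HF/HS. Here the genotypes differed on both diets, by 0.23 on chow (exact p = 0.0227, adjusted p = 0.0455) and by 0.32 on HF/HS (exact p = 0.00932, adjusted p = 0.0224). The value on HF/HS kept its call without any 1 mouse, whereas that on chow lost it in 11 of 13 such fits, all but those without control chow replicate 6 or KO chow replicate 6 (adjusted p up to 0.0795). Without KO chow replicate 1 the difference was 0.18. HF/HS raised the ratio by 0.21 in HGFAC-KO mice (exact p = 0.0286, adjusted p = 0.0490), a call lost without any one of KO chow replicates 2, 3, 5 and 6 or of KO HF/HS replicates 1, 2, 3, 6 and 7 (adjusted p up to 0.1002), and the difference in controls was 0.12 (exact p = 0.260). Exons of *Psmb7* share 405 bases with those of *Nek6* on the opposite strand.

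**Figure D5:**
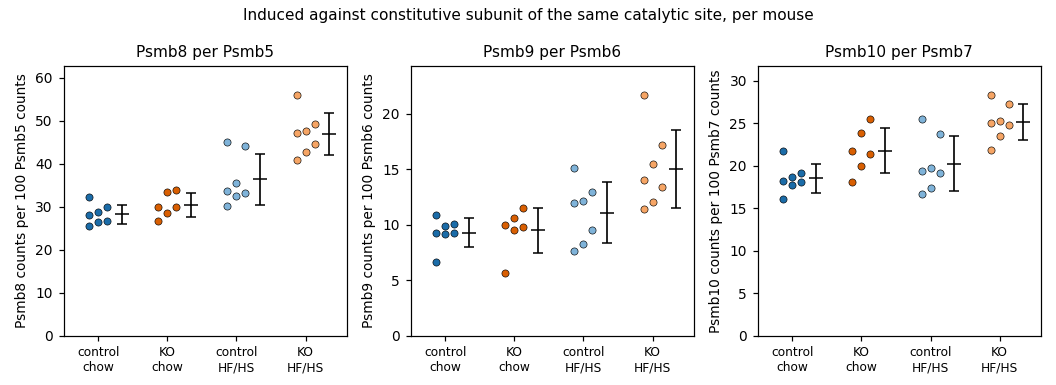
Each point is 1 mouse, and the vertical axis, from 0, gives counts of the induced gene per 100 counts of the gene it replaces (2 added to each count). Black bars show mean and SD. The HGFAC-KO mice on HF/HS have the highest mean in all 3 panels, 46.8 in the left and 25.1 in the right one.

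Genes around the proteasome were read from lists of partners and responses, by counts alone. Of 30 interferon response genes tested, 22 rose and 0 fell with HF/HS in controls (median log2 fold change 0.74) and 26 rose and 0 fell in HGFAC-KO mice (median 0.79). Of all genes tested, 10.5% and 5.89% passed in these comparisons, in either direction. In HGFAC-KO mice *Gbp3* (1.16), *Xaf1* (1.08) and *Oasl2* (1.08), all induced by interferon, had the smallest p. Between genotypes 0 of the 30 passed in edgeR, DESeq2 or limma voom, with 8 (chow) and 1 (HF/HS) of them below an unadjusted p of 0.05, all higher in HGFAC-KO mice, and median log2 fold changes of 0.13 and 0.08. Of all genes tested, 5.98% on chow and 9.64% on HF/HS were below that p, in either direction. Of 19 genes of antigen presentation on MHC class I, 4 rose with HF/HS in controls and 5 in HGFAC-KO mice (10.5% and 5.89% of all genes tested passed), and DESeq2 called 6 and 7. Between genotypes 0 of the 19 passed in edgeR, DESeq2 or limma voom, with 3 on either diet below an unadjusted p of 0.05, all higher in HGFAC-KO mice (5.98% and 9.64% of all genes tested were below it in either direction), and 13 on chow and 16 on HF/HS had a higher mean. *Tap1*, the peptide transporter that neighbours *Psmb9*, rose by 0.43 on the log2 scale in HGFAC-KO mice (SE 0.08, adjusted p = 0.00360), and *Nlrc5*, an activator of MHC class I genes, by 0.63.

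Markers of immune cells were read beside these lists. Of the leukocyte and Kupffer cell markers 2 of 29 tested rose with HF/HS in controls, a smaller share than the 10.5% of all genes that passed there in either direction. In HGFAC-KO mice 8 of 30 rose, where 5.89% of all genes passed, and 0 fell in either genotype. The median log2 fold changes were 0.18 and 0.49, and DESeq2 called 4 and 14 markers higher. In HGFAC-KO mice *Cd4* (1.57), *Cd68* (0.51), a macrophage marker, and *Clec4f* (0.65), a Kupffer cell marker, had the smallest p. The summed level of the 32 markers spanned 167 to 325 CPM among controls and 151 to 233 CPM in HGFAC-KO mice on chow, and 200 to 413 CPM and 218 to 343 CPM on HF/HS, and none was at 0 in all mice. Between genotypes 0 of them passed in edgeR, DESeq2 or limma voom, with 1 (chow) and 2 (HF/HS) of them below an unadjusted p of 0.05, where 5.98% and 9.64% of all genes tested were. On chow 22 of 28 markers tested had a lower mean in HGFAC-KO mice (median log2 fold change -0.16), where 48.8% of all genes tested did. On HF/HS 21 of 31 had a higher and 10 a lower mean (median 0.05), where 50.5% of all genes tested were lower. In the interaction 26 of 32 lay above 0 and 6 below (median 0.25), and 0 passed. Of all genes tested there, 48.7% lay below 0. The part of these cells and of the interferon response in the levels of *Psmb8*, *Psmb9* and *Psmb10* was not tested. The mouse with the highest level of all 3 immunoproteasome genes in its group was control chow replicate 6, control HF/HS replicate 4 and KO HF/HS replicate 2, and no HGFAC-KO mouse on chow was highest in all 3. From the highest level down, these mice ranked 3rd, 15th and 2nd of the 27 in summed immune cell markers and 16th, 4th and 7th in summed interferon response level. Control HF/HS replicate 7, 2nd of its group in *Psmb8*, ranked 1st in both sums. The ranks run over both diets. Within its own group, control chow replicate 6 was highest in both sums (325 and 988 CPM). KO HF/HS replicate 2 was highest of its group in immune cell markers (343 CPM). In interferon response it was below the group median (1321 against 1370 CPM). Control HF/HS replicate 4 was below its group median in immune cell markers (234 against 251 CPM) and above it in interferon response (1493 against 1208 CPM).

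Markers of other cell types were read in the same way. Of 12 endothelial markers 0 passed between genotypes, with 2 (chow) and 3 (HF/HS) of them below an unadjusted p of 0.05 (5.98% and 9.64% of all genes tested were) and median log2 fold changes of -0.17 and -0.14, and with HF/HS *Stab2* rose in HGFAC-KO mice, where DESeq2 called 4 markers higher. With HF/HS 11 of the 12 had a higher mean in either genotype, with median log2 fold changes of 0.23 in controls and 0.25 in HGFAC-KO mice. In controls none of them passed in edgeR, 7 had an unadjusted p under 0.05 (25.4% of all genes tested did) and DESeq2 called 2 higher. Of 10 stellate cell markers 1 rose and 1 fell with HF/HS in controls (median log2 fold change 0.15), and in HGFAC-KO mice (median 0.33) edgeR called 0, with 2 at an unadjusted p under 0.05 (22.4% of all genes tested), and DESeq2 called 2 higher. Of 7 cholangiocyte markers tested 1 rose with HF/HS in controls, and DESeq2 called *Sox9* higher in HGFAC-KO mice on HF/HS. Of 11 hepatocyte markers 1 rose and 1 fell with HF/HS in controls and 1 fell in HGFAC-KO mice. These counts stand against 10.5% (controls) and 5.89% (HGFAC-KO) of all genes tested that passed with HF/HS in either direction. Between genotypes edgeR called no hepatocyte marker, with 2 of 11 on chow (both higher in HGFAC-KO mice) and 4 of 11 on HF/HS (1 higher and 3 lower) below an unadjusted p of 0.05, where 5.98% and 9.64% of all genes tested were, and DESeq2 called *Alb* higher in HGFAC-KO mice on both diets and *Apoa1* on chow. Of the stellate cell markers 1 on chow and 1 on HF/HS, and of the cholangiocyte markers 1 and 2, were below that p between genotypes, and edgeR called 0. *Stab2*, *Sox9*, *Alb* and *Apoa1* were named after their values were seen.

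Proteins that work with the proteasome were read in the same way. Of 25 partner genes tested, 0 passed between genotypes in edgeR, DESeq2 or limma voom. On chow 3 were below an unadjusted p of 0.05, 1 higher and 2 lower in HGFAC-KO mice, and on HF/HS 2 were, both lower. Of all genes tested, 5.98% and 9.64% were below that p. A lower mean in HGFAC-KO mice was found in 21 of 25 on chow and 17 of 25 on HF/HS (median log2 fold changes -0.04 and -0.05). Of all genes tested, 48.8% and 50.5% had one. The smallest p on chow was that of *Rps27a*, which was higher in HGFAC-KO mice (0.23, adjusted p = 0.801 by edgeR). *Vcp*, the unfoldase that hands substrates over (-0.21), *Rad23b*, a shuttle for ubiquitin chains (-0.13), and *Adrm1*, a ubiquitin receptor of the 19S particle (-0.16), had the smallest p on HF/HS, with adjusted p of 0.448, 0.448 and 0.542. With HF/HS in controls 3 of 25 passed, a share near the 10.5% of all genes tested. The shuttle genes *Ubqln2* and *Ubqln4* fell by 0.36 and 0.24 on the log2 scale, and *Akirin2*, whose product brings proteasomes into the nucleus, rose by 0.20. With HF/HS in HGFAC-KO mice 0 partner genes passed in edgeR, DESeq2 or limma voom, and 8 had an unadjusted p under 0.05, where 22.4% of all genes tested did.

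Targets of NFE2L2, the factor of the oxidative stress response, fell with HF/HS more often than they rose. In controls 7 of 11 fell and 0 rose, with a median log2 fold change of -0.46, and in HGFAC-KO mice 4 fell and 2 rose (10.5% and 5.89% of all genes tested passed in either direction). DESeq2 called 7 lower in controls, and 6 lower and 2 higher in HGFAC-KO mice. In controls the enzymes of detoxification *Gstm1*, *Gsta1* and *Ephx1* had the smallest p, with log2 fold changes of -1.57, -3.68 and -0.95, *Gsta1* at mean levels under 1 CPM. Between genotypes 0 NFE2L2 targets passed in edgeR, DESeq2 or limma voom, with 2 (chow) and 1 (HF/HS) of them below an unadjusted p of 0.05 (5.98% and 9.64% of all genes tested were).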

How the data were processed

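Liver RNA was measured in 27 mice. The authors made stranded mRNA libraries, sequenced paired-end reads, aligned them with HISAT2 to GRCm38 (mm10) and counted them with featureCounts (version 1.6.3 in the submitters' processing notes), and deposited counts per gene without normalization. The annotation and strand setting are not given in the sources used here. Of 27179 rows, 3886 name no gene and held 4.13% to 12.1% of a library's counts. They stayed out of library sizes and tests. Rows of the 89 symbols listed more than once were summed. Libraries of a group differed by more than sampling noise, with a chi-square per gene of 17.7 or more.

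Groups came from the labels. The p-values set group differences against the spread between these mice, taken as independent. Nothing states that mice of a group came from separate cages or litters, so that assumption could not be checked. The test was the quasi-likelihood test of edgeR 4.0.16 (R 4.3.3), fitted to the mice of each comparison after TMM normalization. Low counts were removed by filterByExpr, with 10 as the minimum count and 15 as the minimum total, and adjusted p (Benjamini-Hochberg) had to be under 0.05. The interaction used all 27 mice. CPM for permutation tests had a prior count of 2. The comparisons share groups of mice. Named were *Hgfac*, the 6 catalytic genes, *Psme1*, *Psme2*, in each comparison the 5 members with the smallest unadjusted p, the 5 highest and 3 lowest members per kilobase, and in each list the 3 genes with the smallest p in a comparison described. The last part was applied to the lists of interferon response, antigen presentation, immune cells, partners and NFE2L2 targets (1 gene is not reported here). The other marker lists are given by counts. The members, lists and tests were chosen with earlier results of these data known, and no list was given a set test. Alternatives were DESeq2 1.42.0 with and without independent filtering, limma 3.58.1 voom, a fit of all 27 mice, other filters and scalings, a block for the replicate number, leaving out each mouse and, for the ratios, a prior count of 0.5. Dividing the counts of KO chow replicate 1 by 2 and leaving out both libraries with excess even counts were added after the data were seen. Exon lengths and positions are from GENCODE M21 (GRCm38) and promoters from RefSeq (GRCm38.p6), where 40 of 48 members matched. The scripts were tested on simulated data. Exact tests were two-sided.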

Additional observations from a re-analysis of the deposited data

Results flagged for a closer look

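A sample far from the rest of its group was sought in 120 sets of values (the named members and *Hgfac*, and the ratios, in each group), and 6 met Dixon's criterion, about as many as chance gives at 1 in 20. *Psmb6* was high in control HF/HS replicate 3 (149.8 CPM, against 122 to 131 in the other mice of the group). *Psmd1* was low in KO chow replicate 5 (154.8 CPM, against 160 to 163). *Psmd2* was low in KO HF/HS replicate 6, a library with excess even counts (204.6 CPM, against 222 to 233). *Psme4* was high in control HF/HS replicate 2 (176.7 CPM, against 138 to 149). The log2 ratio of *Psmb9* to *Psmb6* was low in control chow replicate 3 (-3.92, against -3.45 to -3.20) and in KO chow replicate 1, whose counts are all even (-4.16, against -3.39 to -3.12).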

How the results depend on the processing

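Counts of proteasome genes past the threshold changed in 2 comparisons. With HF/HS in HGFAC-KO mice, 2 passed in the main test, 5 with DESeq2 with or without independent filtering (*Psmb5*, *Psmb8*, *Psmb9*, *Psmc1*, *Psme1*), 4 in the fit of all 27 mice, 3 with total counts without TMM (*Psmb5*, *Psmb8*, *Psmc1*), 1 with no filter on low counts and 1 without both libraries with excess even counts. Between genotypes on HF/HS, 0 passed in the main test and 1 with DESeq2 with or without independent filtering. With 1 mouse left out, the count ran from 1 to 3 with HF/HS in HGFAC-KO mice and kept its value in the other comparisons, and it was 1 without KO chow replicate 3 or any one of KO HF/HS replicates 3, 4, 6 and 7. The cause was not tested. With 1 mouse left out, the difference in the log2 ratio of *Psmb10* to *Psmb7* ran from 0.18 to 0.28 between genotypes on chow and from 0.16 to 0.26 with HF/HS in HGFAC-KO mice, and that of *Psmb9* to *Psmb6* from -0.070 to 0.15 between genotypes on chow and from 0.35 to 0.53 on HF/HS. Among the 6 catalytic genes, single genes reversed only near 0. Over all constitutive genes, the highest interaction value was 0.0068 in the main fit. It was 0.13 with the replicate number as a block and 0.20 without KO chow replicate 5. Between genotypes on chow, *Psmb6* was 0.0015 with upper-quartile normalization and from -0.036 to 0.017 with 1 mouse left out, *Psmb9* was -0.0076 with total counts and from -0.065 to 0.12, and *Psmb8* ran from -0.019 to 0.069. With HF/HS in controls, *Psmb6* ran from -0.054 to 0.0083 and *Psmb10* from -0.0010 to 0.10. The interaction of *Psmb7* ran from -0.030 to 0.0066. With 1 mouse left out, the median log2 fold change of the constitutive genes ran from -0.067 to -0.024 between genotypes on chow, from -0.13 to -0.10 between genotypes on HF/HS, from -0.036 to 0.0064 with HF/HS in controls and from -0.096 to -0.068 with HF/HS in HGFAC-KO mice, and that of the interaction from -0.083 to -0.044.

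The replicate numbers do not pair mice: correlations of same-numbered mice were from -0.15 to 0.37 between genotypes on chow, from -0.25 to 0.29 on HF/HS, from -0.23 to 0.09 with HF/HS in controls and from -0.15 to 0.27 with HF/HS in HGFAC-KO mice, where 5 of 6 were above 0. With the replicate number as a block, 0 proteasome genes passed between genotypes on either diet, 1 with HF/HS in controls and 2 with HF/HS in HGFAC-KO mice (*Psmb8* and *Psmb9* in place of *Psmc1*). At CPM below 1 (*Psma8*) counting error limits the precision, and the standard errors rest on the spread between these mice.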
